A study of Homo sapiens with 12 samples.

Results

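The response to estradiol in U2OS-ERα cells depleted of the coactivator SRC-1 was measured as the difference between 3 arrays of estradiol-treated cells and 3 arrays of vehicle-treated cells, all of which had received a siRNA pool against SRC-1. These are 6 of the 12 arrays of the series. The members are the 19460 probe sets that carry 1 gene symbol, of 29094 tested, and they stand for 18417 genes. U2OS is a human osteosarcoma line, and the cells used here carry the estrogen receptor ERα; how the receptor was introduced and which promoter drives it are not given in the sources used here. In all 4 groups of the study the cells were transfected with 50 nM siRNA, moved the next day to phenol red-free medium with charcoal-stripped serum, and given ethanol or 17-B-estradiol for 3 h, at a dose that the sources used here do not give. The other 6 arrays, with a non-targeting siRNA pool and ethanol or estradiol, served for comparison. Each group holds 3 arrays that the labels call biological replicates, and nothing in the labels says whether they are separate cultures prepared on separate days. The values are log2 signals on the Affymetrix Human Gene 1.0 ST array.

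ERα is a transcription factor that is switched on by its ligand: with estradiol bound, it sits at estrogen response elements in DNA, or at sites held by partners such as AP-1, and changes the transcription of nearby genes. SRC-1, encoded by NCOA1, is a coactivator of the p160 family that binds the hormone-bound receptor and brings in histone acetyltransferases. Other p160 members, NCOA2 and NCOA3, can bind the same receptor surface.

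The targeted gene was read first in every sample. With non-targeting siRNA, NCOA1 (probe set 8040552) stood at 8.81, 8.72 and 8.83 in the vehicle arrays and at 9.15, 9.06 and 9.02 in the estradiol arrays. With SRC-1 siRNA it stood at 6.18, 5.62 and 5.78 with vehicle and at 6.79, 6.88 and 6.92 with estradiol. All 6 arrays with SRC-1 siRNA thus lay below all 6 arrays with non-targeting siRNA, and within the knockdown the estradiol arrays lay above the vehicle arrays without overlap. NCOA1 was 2.0-fold higher after estradiol in the knockdown cells (log2 difference 1.00 ± 0.11 SE, adjusted p = 0.00029, limma with Benjamini-Hochberg adjustment). This call was lost, at a log2 difference of 0.53, when the mean of the control probe sets on each array, described below, was entered as a covariate. ESR1, the gene of ERα itself, read 12.10, 12.09 and 12.14 with vehicle and 12, 12.03 and 12.04 with estradiol on probe set 8122843. These arrays did not overlap, but the log2 difference of -0.09 ± 0.04 did not pass the test (adjusted p = 0.218). The other ESR1 probe set, 8122840, averaged 5.44 with vehicle and 5.53 with estradiol (0.10 ± 0.11, adjusted p = 0.631). NCOA2 differed by 0.05 (adjusted p = 0.663). The corepressor gene NRIP1, which encodes RIP140 and is a direct estrogen target in breast cells, rose by 0.40 ± 0.06 (adjusted p = 0.00324).

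The bone label was compared with marker genes. SPARC, a bone matrix protein, stood at 12.59, 12.53 and 12.49 with vehicle and 12.52, 12.57 and 12.53 with estradiol, and the osteoblast genes RUNX2, SP7, ALPL, COL1A1 and SPP1 were also above the lower quartile of every array, which lay between 5.17 and 5.24. IBSP, a late osteoblast gene, averaged 4.95 with vehicle and was below that quartile, as were the leukocyte gene PTPRC, at 4.13, and the endothelial gene PECAM1, at 5.08. The epithelial genes KRT8 and KRT18 averaged 11.18 and 11.86 with vehicle and did not pass the test for estradiol.

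A probe set was called when its p was under 0.01 and its adjusted p under 0.05, the thresholds stated for the study. Among all tested probe sets 6.88% were called, 4.49% higher and 2.39% lower after estradiol; among the 19460 with 1 symbol 7.01% were called, which is 869 higher and 495 lower. Of the 7880 probe sets with no symbol 5.9% were called, 3.67% higher and 2.23% lower. At the level of genes, each read by its probe set with the highest mean, 795 of 18417 were called higher (4.32%) and 481 lower (2.61%), 6.93% in all. In 1362 of the 1364 called probe sets with 1 symbol the vehicle and estradiol arrays did not overlap, against 25.8% of all tested probe sets. The call itself favours groups that stand apart, so this share is no separate support for the calls. The increases were the larger changes: their median size was 0.36 on the log2 scale and the decreases' 0.29, 54 increases reached 2-fold and 8 reached 4-fold, and no decrease reached 2-fold. Of the called probe sets, 465 of the increases and 162 of the decreases were called in each of the 12 fits that left out 1 array.

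The balance of directions depended on how the arrays were scaled. After quantile normalization over all probe sets of the file, an alternative added after the data were seen, 664 genes were called higher and 831 lower, and after median centring 875 higher and 341 lower. The 4203 probe sets taken as array controls, which name no gene, deviated from their overall mean by -0.024, -0.159 and -0.09 on average in the vehicle arrays with SRC-1 siRNA, and by 0.133, 0.094 and 0.178 in the estradiol arrays. With that array mean as a covariate, 81 of the 869 increases and 6 of the 495 decreases were still called, and the median standard error of the called probe sets rose from 0.065 to 0.135. The control means of these vehicle and estradiol arrays did not overlap, so the covariate cannot be cleanly told apart from the treatment. A call lost with it therefore does not show that an effect was absent. Dropping an array lowered the count of 2001 called probe sets most for vehicle replicate 2 (1042 called without it), then estradiol replicate 1 (1205), vehicle replicate 3 (1242) and estradiol replicate 3 (1289); dropping vehicle replicate 1 raised the count to 2956. What moves the control probe sets was not tested.

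**Figure D1:**
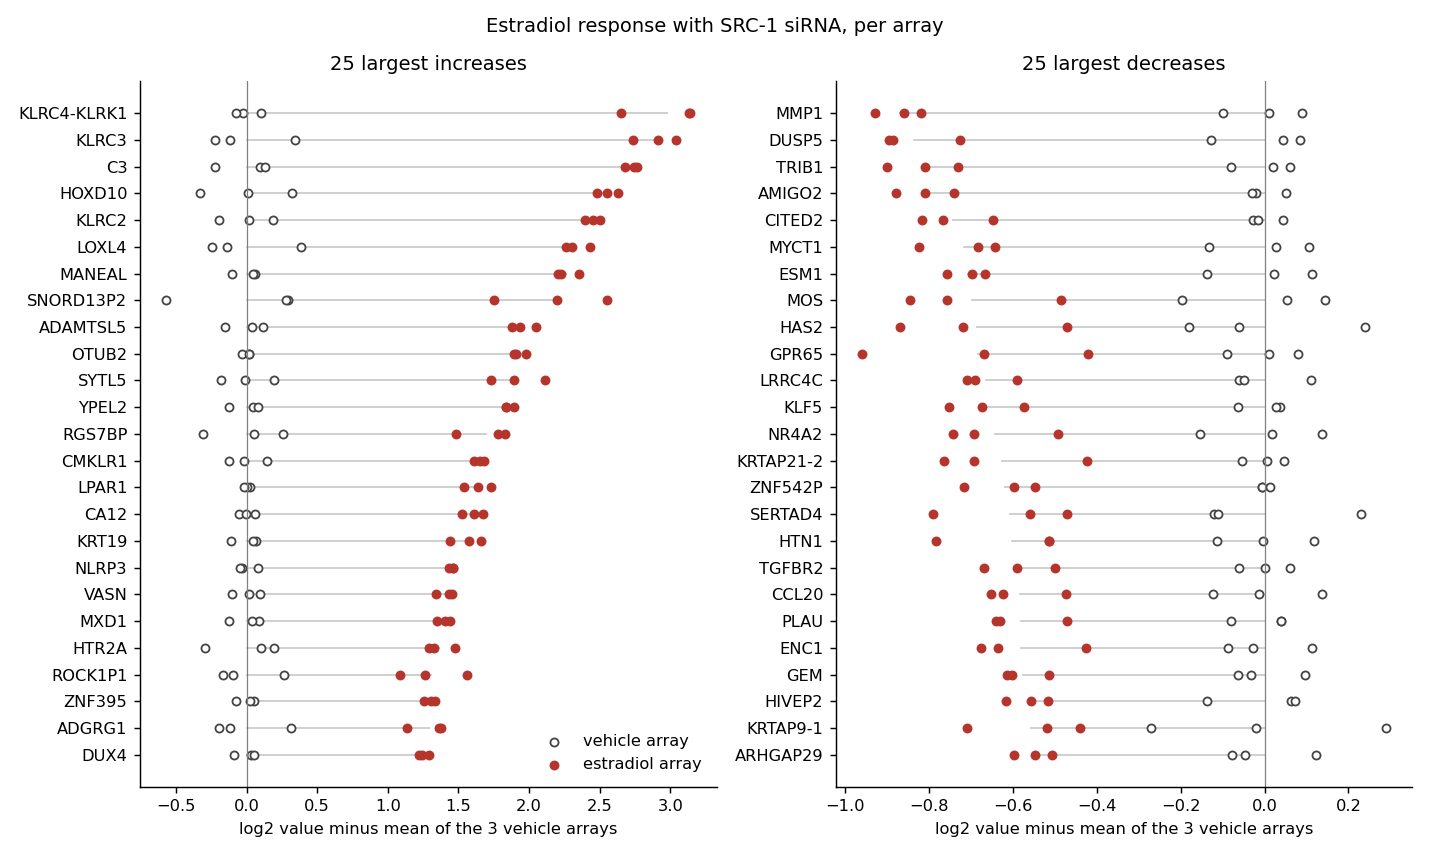
Log2 value in each array minus the mean of the 3 vehicle arrays, for the 25 largest increases (left) and the 25 largest decreases (right). They were taken from called genes with SRC-1 siRNA whose vehicle and estradiol arrays did not overlap. Open points are vehicle arrays and red points estradiol arrays. The increases run from 1.25 to 2.98 and the decreases from 0.55 to 0.87 in size.

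The largest increases included C3, LOXL4, ADAMTSL5, CA12 and KRT19, between 1.56 and 2.73 on the log2 scale. C3, the central protein of the complement cascade, stood at 6.46, 6.49 and 6.14 in the vehicle arrays and at 9.13, 9.04 and 9.11 in the estradiol arrays, a 6.62-fold increase (log2 difference 2.73 ± 0.10 SE, adjusted p = 8.12e-08). LOXL4, a lysyl oxidase-like enzyme that crosslinks collagen and elastin, stood at 7.89, 7.26 and 7.37 and then at 9.94, 9.81 and 9.77 (2.33 ± 0.15, adjusted p = 4.04e-06). ADAMTSL5, a secreted relative of the ADAMTS proteases without a protease domain, stood at 8.18, 7.91 and 8.10 and then at 10.11, 10.00 and 9.94 (1.95 ± 0.07, adjusted p = 8.12e-08). In all 3 genes the lowest estradiol array was well above the highest vehicle array. CA12, a membrane carbonic anhydrase and a well-known estrogen target in breast cancer cells, read 8.81, 8.70 and 8.75 with vehicle and 10.43, 10.28 and 10.36 with estradiol (1.61 ± 0.06, adjusted p = 7.97e-08). KRT19, a keratin of simple epithelia, read 6.83, 6.81 and 6.65 and then 8.42, 8.34 and 8.20 (1.56 ± 0.09, adjusted p = 1.21e-06). The call of all 5 genes remained with the control probe sets as a covariate.

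Several G protein-coupled receptors were among the 25 largest increases, and GPR65 was among the 25 largest decreases. CMKLR1, the receptor of the chemoattractant chemerin, read 5.52, 5.68 and 5.41 with vehicle and 7.15, 7.22 and 7.19 with estradiol (1.65 ± 0.11, adjusted p = 4.12e-06). LPAR1, a receptor of lysophosphatidic acid, read 5.67, 5.65 and 5.63 and then 7.38, 7.29 and 7.19 (1.64 ± 0.08, adjusted p = 7.05e-07). HTR2A, a serotonin receptor, read 5.47, 5.56 and 5.07 and then 6.69, 6.84 and 6.66 (1.36 ± 0.14, adjusted p = 0.000139). No estradiol array overlapped a vehicle array in any of these 3 genes, as the choice of the 25 required. ADGRG1, an adhesion G protein-coupled receptor, rose by 1.29 ± 0.15, and RGS7BP, a membrane anchor for regulators of G protein signalling, by 1.70 ± 0.14; both lost their call with the covariate. GPR65 fell by 0.68 ± 0.12, from 6.76, 6.93 and 6.86 to 5.89, 6.43 and 6.18 (adjusted p = 0.00578, limma), and also lost its call with the covariate. Of the 133 listed G protein-coupled receptors 4 were called higher (3.01%) and 7 lower (5.26%), beside 4.32% and 2.61% of all genes.

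Among intracellular regulators, HOXD10, a homeobox factor of limb and trunk patterning, stood at 5.87, 6.18 and 5.53 with vehicle and 8.41, 8.49 and 8.34 with estradiol, a 5.87-fold increase (2.55 ± 0.14, adjusted p = 1.33e-06). Its neighbour HOXD11 read 6.53, 6.96 and 6.48 and then 7.68, 7.53 and 7.47 (0.90 ± 0.11, adjusted p = 0.000458). HOXD8, HOXD9 and HOXD13 of the same cluster differed by -0.04, -0.17 and -0.23 and did not pass the test (adjusted p = 0.818, 0.103 and 0.0993). The other called genes of the HOX list were lower: HOXB2 by 0.39, from 9.36, 9.39 and 9.34 to 9, 8.96 and 8.96, HOXB3 by 0.34 and HOXC13 by 0.18. Thus 2 of the 27 measured HOX genes were higher (7.41%) and 3 lower (11.1%), beside 4.32% and 2.61% of all genes. OTUB2, a deubiquitinase, gave the smallest adjusted p, with 7.80, 7.75 and 7.80 against 9.76, 9.69 and 9.68 (1.93 ± 0.05, adjusted p = 6.32e-09). MXD1, which pairs with MAX and opposes MYC at its binding sites, read 8.70, 8.49 and 8.65 and then 9.96, 10.05 and 10.02 (1.40 ± 0.06, adjusted p = 1.29e-07). MYC itself fell by 0.47 ± 0.05, from 11.37, 11.41 and 11.40 to 10.89, 10.99 and 10.89 (adjusted p = 0.000219), although its place among the estrogen-induced genes of breast cancer cells is well established. The groups of arrays did not overlap for MXD1 or MYC, as in nearly all called probe sets. With the control probe sets as a covariate the call of MYC was lost and that of MXD1 was kept.

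Promoter sequence was set beside these increases for genes whose RefSeq window was at hand. Windows of 250 bases before to 50 bases after the start (RefSeq, GRCh38.p14) matched 18 of the 25 genes with the largest increases and 15 of the 25 with the largest decreases, too few for a comparison of shares, which is therefore void. The letters of a full estrogen response element, GGTCA and TGACC with any 3 bases between them, on either strand, were in none of these windows and in 0.0659% of all 27305 windows. Its arm alone, GGTCA on either strand, which is also part of the full element, was in 10 of the 18 windows (55.6%), in 5 of the 15 windows of the largest decreases (33.3%) and in 37.7% of all windows. Over all called genes with a window it was in 197 of 600 increases (32.8%) and 96 of 356 decreases (27.0%), against 35.2% of the 14237 tested genes with a window. The AP-1 letters TGANTCA were in 1 of the 18 and 2 of the 15 windows, against 7.76% of all. The 250 bases before the start are shown for 3 strongly raised genes that hold the arm, with its letters in capitals (TGACC is GGTCA on the other strand). HOXD10 lies at chr2:176116528-176116777 on the plus strand with the arm 102 bases before the start, ADAMTSL5 at chr19:1513020-1513269 on the minus strand with arms at 221 and 93 bases, and CA12 at chr15:63381847-63382096 on the minus strand with the arm at 196 bases.
HOXD10: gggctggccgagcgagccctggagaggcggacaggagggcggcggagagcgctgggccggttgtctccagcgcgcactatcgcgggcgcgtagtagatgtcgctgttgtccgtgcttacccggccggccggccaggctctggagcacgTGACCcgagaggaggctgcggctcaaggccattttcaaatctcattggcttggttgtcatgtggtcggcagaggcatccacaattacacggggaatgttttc
ADAMTSL5: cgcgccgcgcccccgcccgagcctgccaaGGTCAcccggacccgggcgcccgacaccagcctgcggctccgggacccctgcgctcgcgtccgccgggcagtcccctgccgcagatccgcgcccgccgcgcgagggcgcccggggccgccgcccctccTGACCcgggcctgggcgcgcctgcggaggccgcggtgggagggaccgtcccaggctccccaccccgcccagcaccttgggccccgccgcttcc
CA12: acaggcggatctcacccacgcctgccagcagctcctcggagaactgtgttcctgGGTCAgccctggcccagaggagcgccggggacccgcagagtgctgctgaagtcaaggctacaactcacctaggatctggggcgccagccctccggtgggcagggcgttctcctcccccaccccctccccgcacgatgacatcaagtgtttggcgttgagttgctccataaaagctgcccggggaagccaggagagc
OTUB2, MANEAL, YPEL2, LOXL4 and LPAR1 rose about as much and had no match to the arm in their windows. A match describes letters in this window and is not a measured binding site.

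Gene lists were then read, and they were chosen with earlier results of these data known, so their shares are descriptive only. Of 35 measured genes listed as estrogen-induced in breast cancer cells, 16 rose and 1, MYC, fell. That is 45.7% higher against 4.32% of all genes, with a median log2 difference of 0.15 against -0.02. FHL2, a LIM-domain coregulator, read 9.42, 9.46 and 9.55 with vehicle and 10.53, 10.55 and 10.43 with estradiol (1.02 ± 0.06, adjusted p = 1.54e-06). HSPB8, a small heat shock protein, read 10.27, 10.34 and 10.32 and then 11.30, 11.31 and 11.29 (0.99 ± 0.06, adjusted p = 3.83e-06). In both genes the arrays of a treatment lay apart from those of the other treatment, as in nearly all called probe sets. C3, CA12 and KRT19, described above, were the members that rose most, and the remaining 11 ran from 0.18 in CTSD, a lysosomal protease, to 1.11 in MYB, a transcription factor. With the control probe sets as a covariate 6 members were called higher and none lower. GREB1, a receptor cofactor and direct target in breast cells, read 7.51, 7.34 and 7.63 and then 7.94, 8.01 and 7.86 (0.45 ± 0.07, adjusted p = 0.00213). Other textbook targets did not pass the test: TFF1 differed by -0.19 (adjusted p = 0.392), PGR by -0.13 (0.35) and CXCL12 by -0.09 (0.507). Of 19 listed estrogen-repressed genes 6 fell (31.6%, against 2.61% of all genes) and 2 rose, with a median of -0.14; 3 were lower after median centring, and none was called with the covariate. ZFP36L1, which binds AU-rich mRNA and promotes its decay, fell by 0.54 ± 0.05, from 12.03, 12.02 and 12.01 to 11.47, 11.58 and 11.40 (adjusted p = 8.17e-05). EFNA1, an ephrin ligand, fell by 0.32 ± 0.06 (adjusted p = 0.00803).

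**Figure D2:**
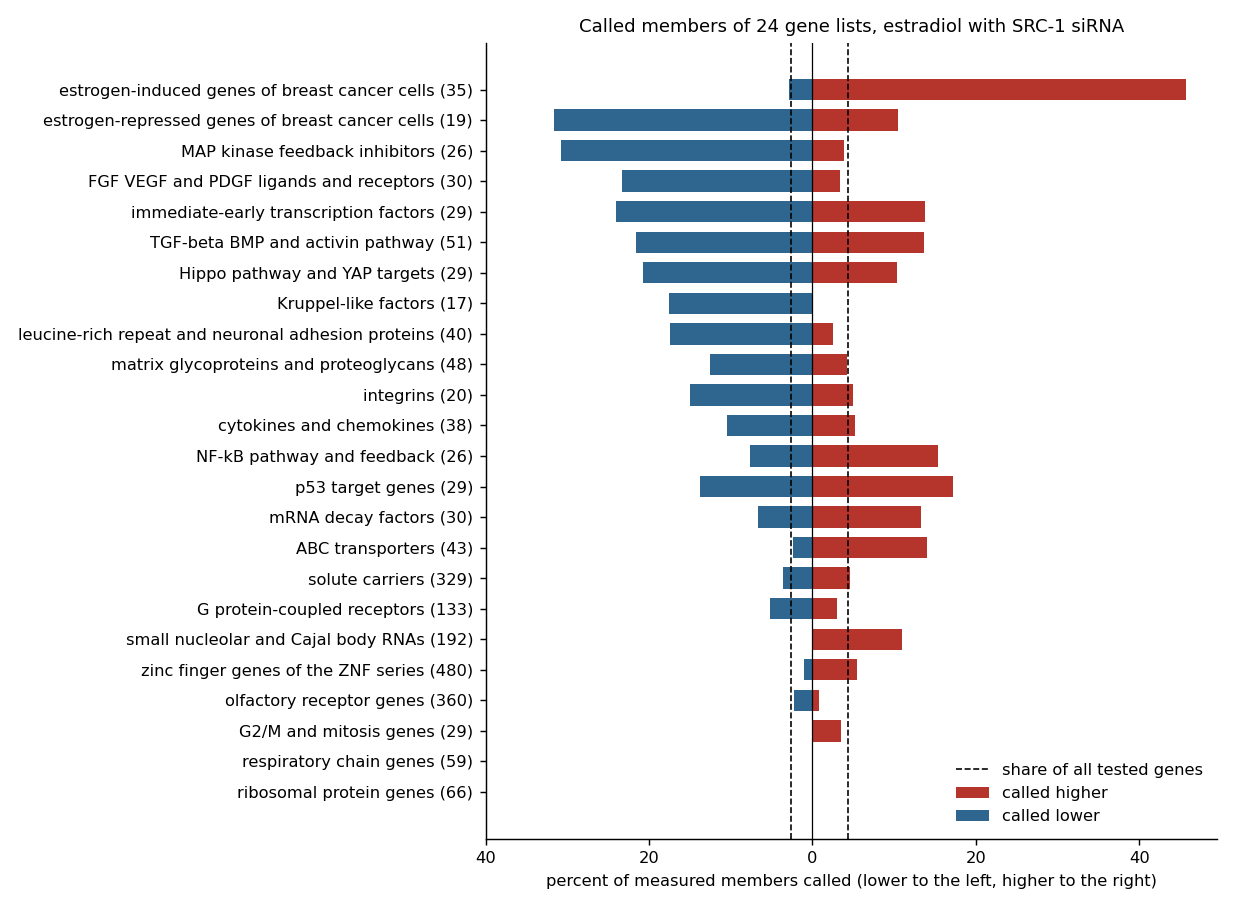
Share of the measured genes of 24 lists that were called lower (bars to the left) or higher (bars to the right) after estradiol with SRC-1 siRNA; the dashed lines mark the shares over all 18417 genes, 2.61% lower and 4.32% higher. The estrogen-induced list reaches 45.7% higher, and the estrogen-repressed and MAPK feedback lists reach 31.6% and 30.8% lower. The 24 lists are a selection from the 65 measured. All lists were chosen with earlier results of these data known, so the shares describe the data and test nothing.

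Several brakes of growth factor signalling were among the decreases. Of 26 listed feedback regulators of MAP kinase signalling, 8 fell (30.8%, against 2.61% of all genes) and 1 rose (3.85%, against 4.32%). Their median was -0.14, against -0.02 over all genes. DUSP5, a nuclear phosphatase of ERK, read 9.90, 10.07 and 10.11 with vehicle and 9.14, 9.30 and 9.13 with estradiol, a 1.79-fold decrease (-0.84 ± 0.07, adjusted p = 5.49e-05). TRIB1, a pseudokinase that acts on MAP kinase signalling and protein turnover, read 10.14, 10.24 and 10.28 and then 9.41, 9.49 and 9.32 (-0.82 ± 0.06, adjusted p = 1.13e-05). SPRY2, an inhibitor of receptor tyrosine kinase signalling, read 8.81, 9.03 and 9.12 and then 8.43, 8.48 and 8.43 (-0.54 ± 0.09, adjusted p = 0.00592). Vehicle and estradiol arrays were apart in all 3 genes, as in nearly all called probe sets, so this is no separate support. DUSP10 and DUSP14 fell by 0.45 and 0.37, and the member that rose was ERRFI1, an inhibitor of ERBB receptors, by 0.23. DUSP4 and DUSP6, phosphatases of ERK and related kinases, differed by -0.32 and -0.33 and did not pass the test (adjusted p = 0.0797 and 0.108). No member of this list kept its call with the control probe sets as a covariate, where the median was -0.17. After median centring 1 was higher and 6 were lower.

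Ligands of receptor tyrosine kinases were divided. Of 30 listed ligands and receptors of the FGF, VEGF and PDGF families 7 fell (23.3%, against 2.61% of all genes). In that list 1 gene, VEGFA, rose, by 0.31 (3.33%, against 4.32%), and none was called with the covariate. FGF2 read 9.79, 9.96 and 10.09 with vehicle and 9.55, 9.43 and 9.53 with estradiol (-0.44 ± 0.07, adjusted p = 0.00349). VEGFC, a lymphatic growth factor, fell by 0.43 ± 0.05, and FGF5 by 0.38 ± 0.05. TGFA, a ligand of the EGF receptor, went the other way, from 6.50, 6.44 and 6.42 to 7.46, 7.50 and 7.33 (0.98 ± 0.07, adjusted p = 5.17e-06).

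Genes of the immediate-early class also split by member, with 4 of 29 higher (13.8%) and 7 lower (24.1%), beside 4.32% and 2.61% of all genes. With the covariate 2 were higher and none lower. NR4A2, an orphan nuclear receptor, read 8.19, 8.02 and 8.31 with vehicle and 7.48, 7.68 and 7.43 with estradiol (-0.64 ± 0.09). FOSL2, an AP-1 subunit, rose from 10.36, 10.36 and 10.26 to 11.24, 11.31 and 11.19 (0.92 ± 0.05, adjusted p = 1.91e-06). Other AP-1 and stress factors fell by less: ATF3 by 0.40, FOSL1 by 0.31 and JUN by 0.20. IER3, a stress-response gene, rose by 1.08 ± 0.06 and EGR1 by 0.40. KLF5, a zinc finger factor of proliferating epithelia, fell from 9.70, 9.80 and 9.79 to 9.01, 9.09 and 9.19 (-0.66 ± 0.06). CITED2, which competes for the acetyltransferases CBP and p300, fell from 11.12, 11.05 and 11.06 to 10.43, 10.31 and 10.26 (-0.74 ± 0.05, adjusted p = 8.67e-06) and kept its call with the covariate.

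In the TGF-β, BMP and activin pathway 11 of 51 measured genes fell (21.6%) and 7 rose (13.7%), beside 2.61% and 4.32% of all genes. The members moved by role in no common direction. Among receptors, TGFBR2, the ligand-binding TGF-β receptor, fell 1.5-fold, from 10.85, 10.91 and 10.97 to 10.24, 10.41 and 10.32 (-0.59 ± 0.05, adjusted p = 6.9e-05), and BMPR2 rose by 0.31. Among ligands, BMP4 and BMP2 fell by 0.31 and 0.30, and INHBA, the activin A subunit, rose by 0.40. Among secreted inhibitors, FST, which binds activin, rose from 9.41, 9.28 and 9.44 to 10.35, 10.39 and 10.35 (0.98 ± 0.06), and NOG, which binds BMPs, fell by 0.27. VASN, a surface protein that binds TGF-β and is not on the list, rose from 7.70, 7.90 and 7.82 to 9.26, 9.24 and 9.15 (1.41 ± 0.07). Of the intracellular inhibitors SMAD7 rose by 0.34 and SMAD6 fell by 0.17. TGFBI, a matrix protein induced by TGF-β, fell from 8.35, 8.33 and 8.44 to 7.76, 7.93 and 7.94 (-0.50 ± 0.06). Of the inhibitor-of-differentiation genes, ID1 fell by 0.26 and ID2 rose by 0.38. With the control probe sets as a covariate 1 member of the list was called higher and none lower, and median centring gave 7 higher and 7 lower.

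Matrix and matrix-degrading genes changed in both directions. MMP1, the interstitial collagenase, had the largest decrease of all called genes: 8.97, 9.08 and 9.16 with vehicle and 8.21, 8.14 and 8.25 with estradiol, a 1.83-fold fall (-0.87 ± 0.11, adjusted p = 0.000791). PLAU, the urokinase that activates plasminogen, fell from 9.64, 9.76 and 9.76 to 9.09, 9.25 and 9.08 (-0.58 ± 0.06, adjusted p = 0.000115), and its receptor gene PLAUR fell by 0.23. TIMP3, an inhibitor of metalloproteases, rose from 9.04, 9.03 and 8.98 to 10.25, 10.16 and 10.10 (1.15 ± 0.07, adjusted p = 1.91e-06). MMP1, PLAU and TIMP3 were named for their own values and do not describe a list as a whole. PLAU is counted with the complement and coagulation genes, of which 2 of 44 were higher (4.55%) and 3 lower (6.82%). The list of 49 matrix proteases and inhibitors had 4 genes higher (8.16%) and 3 lower (6.12%), beside 4.32% and 2.61% of all genes. On that list ADAMTS1 also fell, by 0.46, and ADAMTSL5, described above, rose. LOX, the founding lysyl oxidase, rose with LOXL4, from 9.89, 9.79 and 9.80 to 10.63, 10.62 and 10.59 (0.79 ± 0.05, adjusted p = 2.13e-06). Of 55 crosslinking enzymes and collagens 3 rose (5.45%) and 2 fell (3.64%), near the shares of all genes. Of 48 matrix glycoproteins and proteoglycans 6 fell (12.5%, against 2.61% of all genes) and 2 rose (4.17%, against 4.32%), and none was called with the covariate. ESM1, an endothelial-type proteoglycan, read 8.60, 8.76 and 8.85 and then 7.98, 8.07 and 8.04 (-0.70 ± 0.11, adjusted p = 0.00321). HAS2, a hyaluronan synthase, read 6.86, 6.44 and 6.56 and then 5.90, 6.15 and 5.75 (-0.69 ± 0.14, adjusted p = 0.015). The matrix protein genes TNC, LAMA4, LAMB1 and ELN fell by 0.30, 0.34, 0.23 and 0.25.

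Adhesion proteins with leucine-rich repeats or known from neurons, read as 1 list, were mostly lower where they were called. Of 40 measured, 7 fell (17.5%, against 2.61% of all genes) and 1 rose (2.5%, against 4.32%). With the covariate 1 was lower and 1 higher. AMIGO2 read 10.59, 10.52 and 10.51 with vehicle and 9.66, 9.73 and 9.80 with estradiol (-0.81 ± 0.05, adjusted p = 1.98e-06), and its call remained with the covariate. LRRC4C, a netrin-G ligand, read 8.71, 8.72 and 8.88 and then 8.06, 8.18 and 8.08 (-0.67 ± 0.05, adjusted p = 3e-05). FLRT2 fell by 0.51 ± 0.07. The member that rose was SLITRK4, from 7.67, 7.52 and 7.58 to 8.72, 8.61 and 8.73 (1.10 ± 0.07, adjusted p = 2.2e-06). SEMA7A, a membrane-anchored semaphorin, fell from 10.45, 10.53 and 10.44 to 9.99, 9.98 and 9.92 (-0.51 ± 0.05, adjusted p = 0.000107). Of 64 listed axon guidance ligands and receptors, however, 6 were higher (9.38%) and 3 lower (4.69%).

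Cytokine and other inflammatory genes moved in both directions. LIF, a cytokine of the interleukin-6 family, rose from 8.18, 8.12 and 8.08 to 9.29, 9.36 and 9.16 (1.14 ± 0.08, adjusted p = 8.67e-06). CSF1, the macrophage growth factor, rose from 9, 8.92 and 8.84 to 10.00, 9.90 and 9.93 (1.02 ± 0.07, adjusted p = 3.83e-06). CCL20 fell from 8.64, 8.75 and 8.90 to 8.14, 8.29 and 8.11 (-0.59 ± 0.10, adjusted p = 0.00465), and CCL2 by 0.45. IL6 fell by 0.35 ± 0.08, from 6.81, 6.68 and 6.52 to 6.22, 6.43 and 6.30 (adjusted p = 0.0252). Over the whole list of 38 cytokines and chemokines 2 were higher (5.26%) and 4 lower (10.5%), beside 4.32% and 2.61% of all genes. TNFRSF11B, the decoy receptor for RANK ligand, was the fourth that fell, at -0.35. NLRP3, an inflammasome sensor, rose from 7.86, 7.85 and 7.98 to 9.36, 9.36 and 9.33 (1.46 ± 0.07, adjusted p = 3.94e-07). In the prostaglandin list 3 of 22 genes rose (13.6%, against 4.32% of all genes) and none fell (against 2.61%). PTGS2, the inducible cyclooxygenase, rose from 7.61, 7.20 and 7.70 to 8.36, 8.33 and 8.05 (0.74 ± 0.13). SLCO2A1, a prostaglandin transporter, rose by 1.01 ± 0.06, and PLA2G4A, which releases arachidonic acid, by 0.25. Of these only SLCO2A1 was called with the covariate, at 0.98, while PTGS2 stood at 0.47 and was not.

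Some genes of mRNA turnover, the cell cycle and metabolism also changed. ZFP36, the tristetraprolin gene, rose from 7.27, 7.27 and 7.40 to 8.31, 8.33 and 8.28 (0.99 ± 0.07, adjusted p = 7.46e-06), opposite to its relative ZFP36L1. TOB1, an antiproliferative protein that recruits deadenylases, rose from 9.27, 9.20 and 9.29 to 10.27, 10.26 and 10.36 (1.04 ± 0.05, adjusted p = 3.94e-07). PLK2, a polo-like kinase and p53 target, rose from 9.74, 9.60 and 9.75 to 10.93, 10.85 and 10.96 (1.22 ± 0.06, adjusted p = 4.95e-07). Of 29 listed p53 targets 5 rose (17.2%) and 4 fell (13.8%), beside 4.32% and 2.61% of all genes. In glucose handling, SLC2A1 and PFKFB3 rose by 0.54 and 0.55, and SLC2A3, another glucose transporter, fell by 0.55. In the cell-cycle lists 1 of 37 genes of G1/S was higher and 1 lower (2.7% each), and 1 of 29 genes of G2/M was higher (3.45%), shares close to those of all genes. None of 66 ribosomal protein genes, 59 respiratory chain genes or 25 steroid metabolism genes was called.

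Marker lists of other cell types were read against the shares over all genes, 4.32% higher and 2.61% lower. None of 13 epithelial genes, 1 of 14 endothelial genes (7.14%; ERG, higher by 0.69) and 1 of 17 blood cell genes (5.88%; LYZ, higher by 0.47) was called, and 2 of 22 bone genes (9.09%), TNFRSF11B and COL1A2, were lower; quantile normalization over all probe sets called 6 bone genes lower and median centring 1. The natural killer receptor list gave 4 of 14 higher (28.6%). KLRC4-KLRK1, a readthrough gene of that locus, read 4.70, 4.57 and 4.52 with vehicle and 7.25, 7.74 and 7.73 with estradiol, a fitted difference of 2.98 ± 0.19 (adjusted p = 4.27e-06). KLRC3 and KLRC2 rose by 2.89 ± 0.14 and 2.45 ± 0.11. KLRC1 rose by 0.23, and KLRD1, the partner of these receptors on natural killer cells, differed by -0.02 (adjusted p = 0.918). The KLRC genes are closely similar copies, and the array may not tell all of their transcripts apart. In vehicle arrays KLRC2, KLRC3 and KLRC4-KLRK1 were below the lower quartile and not shown to be above background. The size and rank of their increases are therefore uncertain. DUX4, another multicopy gene, had 12 probe sets, 7 of them with values equal to another, and all 12 were called higher, by 0.42 to 1.25.

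Small nucleolar RNA and zinc finger genes were set beside the control probe sets. Of 192 small nucleolar RNA genes 21 were called higher (10.9%, against 4.32% of all genes) and none lower, with a median of 0.10; their mean deviation was 0.062, -0.094 and -0.087 in the vehicle arrays and 0.097, 0.003 and 0.131 in the estradiol arrays, so that vehicle replicate 1 lay above estradiol replicate 2. SNORD13P2 rose most among them, from 6.31, 5.45 and 6.30 to 7.77, 8.22 and 8.57 (2.16 ± 0.23); with the covariate its difference was 1.08 and was not called. Of 480 genes of the ZNF series 26 rose (5.42%, near the share of all genes) and 5 fell (1.04%, against 2.61%), with a median of 0.05; quantile normalization over all probe sets gave 18 and 11, and the covariate gave 1 and 1 with a median of -0.03. With the covariate the small nucleolar RNA median was -0.08 and no member was called. Olfactory receptor genes, which have no known role in these cells, had 3 of 360 higher (0.833%) and 8 lower (2.22%), beside 4.32% and 2.61% of all genes. Their median was -0.05, and 0.05 with the covariate. The part of the control probe sets' shift in these lists was not tested.

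**Figure D3:**
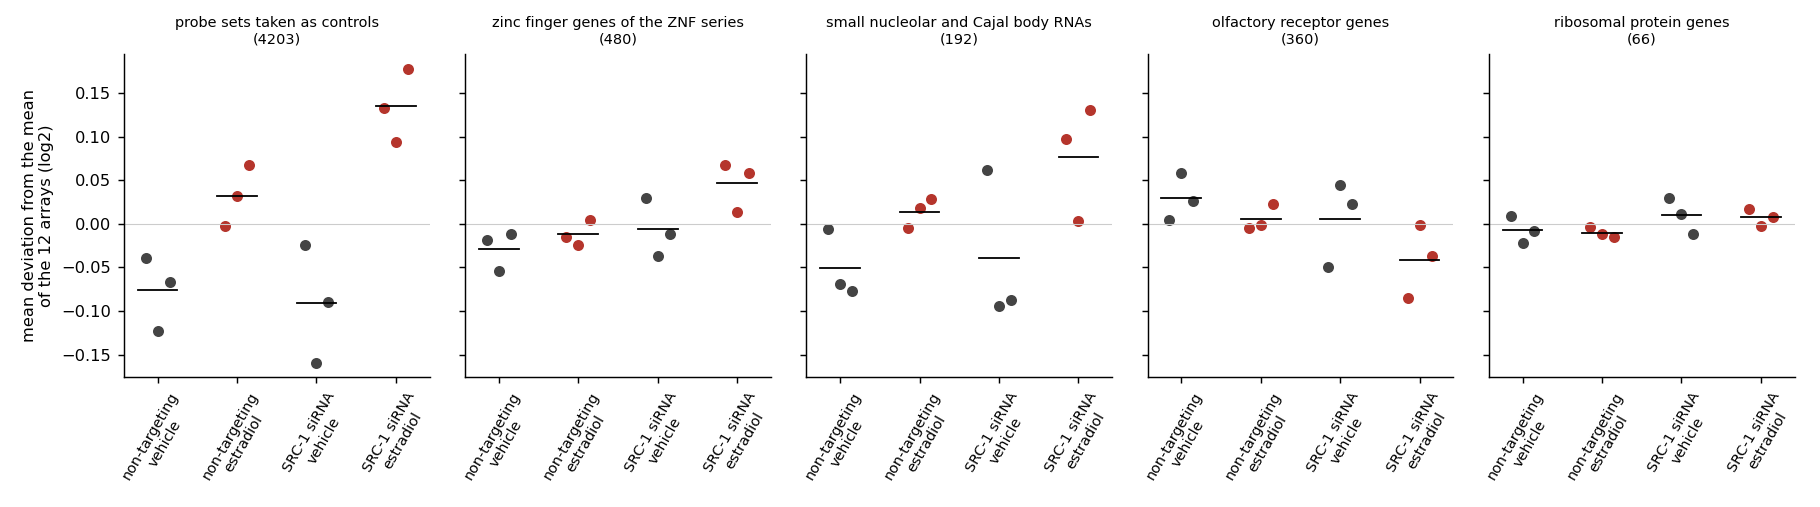
Mean deviation of each array, in log2 units, from the mean over all 12 arrays for 5 sets: the 4203 control probe sets, 480 ZNF genes, 192 small nucleolar RNA genes, 360 olfactory receptor genes and 66 ribosomal protein genes; each point is an array, in 4 groups. With SRC-1 siRNA the control sets go from -0.091 ± 0.067 (SD, n = 3) with vehicle to 0.135 ± 0.042 with estradiol, the ZNF and small nucleolar sets move the same way by less, and the ribosomal set stays within 0.03 of its mean in the 6 arrays.

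The same contrast in cells with non-targeting siRNA called 419 genes higher (2.28%) and 198 lower (1.08%), 3.35% in all. Among probe sets 1.85% were higher and 0.873% lower there, 2.73% in all. The 2 contrasts share no array, but both use the spread that the fit estimated over the 12 arrays. Calls shared between them are therefore not from independent tests. Of the 869 increases with SRC-1 siRNA, 842 had the same sign with non-targeting siRNA and 386 were also called there; of the 495 decreases, 446 had the same sign and 140 were called. The difference of the 2 effects was tested directly, and no probe set passed (limma; smallest adjusted p 0.392, 2102 of 29094 had an unadjusted p below 0.05); 2 passed when the variance was trended and robust. The unadjusted 95% interval of a difference reached 0.221 log2 units to either side in the median probe set, and fitted differences as large as that of MMP1, at -0.93, did not pass after adjustment. A call with SRC-1 siRNA alone is therefore not shown to be a difference between the siRNAs. All 25 of the largest increases were also called with non-targeting siRNA, and for 20 of them the interval of the difference covered 0. For ZNF395, a glucose- and hypoxia-linked factor, the increases were 1.30 and 1.27, a difference of 0.02 with an interval of -0.11 to 0.16. For OTUB2 the difference was 0.08 (-0.07 to 0.23). The intervals that left out 0 were those of KRT19 (-0.57, -0.84 to -0.31), MANEAL (-0.45, -0.70 to -0.20), VASN (-0.28, -0.49 to -0.06), CA12 (0.27, 0.09 to 0.45) and MXD1 (-0.18), and only the value for CA12 was higher under SRC-1 siRNA. Of the 25 largest decreases 18 were called with non-targeting siRNA, and for 17 the interval covered 0. Those that left out 0 were MMP1, ESM1, MOS, MYCT1, TGFBR2, ZNF542P and CCL20, with fitted decreases larger under SRC-1 siRNA, and LRRC4C, with a smaller one, although none of these differences passed after adjustment; TGFBR2 fell by 0.59 against 0.32 (-0.26, interval -0.43 to -0.10, adjusted p = 0.539).

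Among the 8 genes with the smallest p for the difference in each direction, taken from those with a called average effect, none passed after adjustment, and several are given as values. FST rose by 0.98 with SRC-1 siRNA and by 1.61 with non-targeting siRNA, a difference of -0.64 with an interval of -0.83 to -0.44. LOX rose by 0.79 and 1.19 (-0.40, interval -0.55 to -0.26), and these were the genes that passed with the trended variance. LYZ rose by 0.47 with SRC-1 siRNA and 0.89 with non-targeting siRNA. For MMP1, the effects were -0.87 with SRC-1 siRNA and 0.05 with non-targeting siRNA (-0.93, interval -1.27 to -0.58), and for ESM1 -0.70 and 0.05 (-0.75, interval -1.1 to -0.41). WNT4, a secreted Wnt ligand, gave -0.31 and 0.02 (-0.33, interval -0.47 to -0.19). In the other direction, PDK4, a kinase that inhibits pyruvate dehydrogenase, read 6.44, 6.40 and 6.44 with vehicle and 7.43, 7.52 and 7.39 with estradiol in the knockdown cells, a rise of 1.02 against 0.62 with non-targeting siRNA (0.40, interval 0.24 to 0.56). TMPRSS3, a membrane serine protease, rose by 1.07 against 0.56 (0.51, interval 0.25 to 0.76), and NCOA1 by 1.00 against 0.29 (0.71, interval 0.36 to 1.06).

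**Figure D4:**
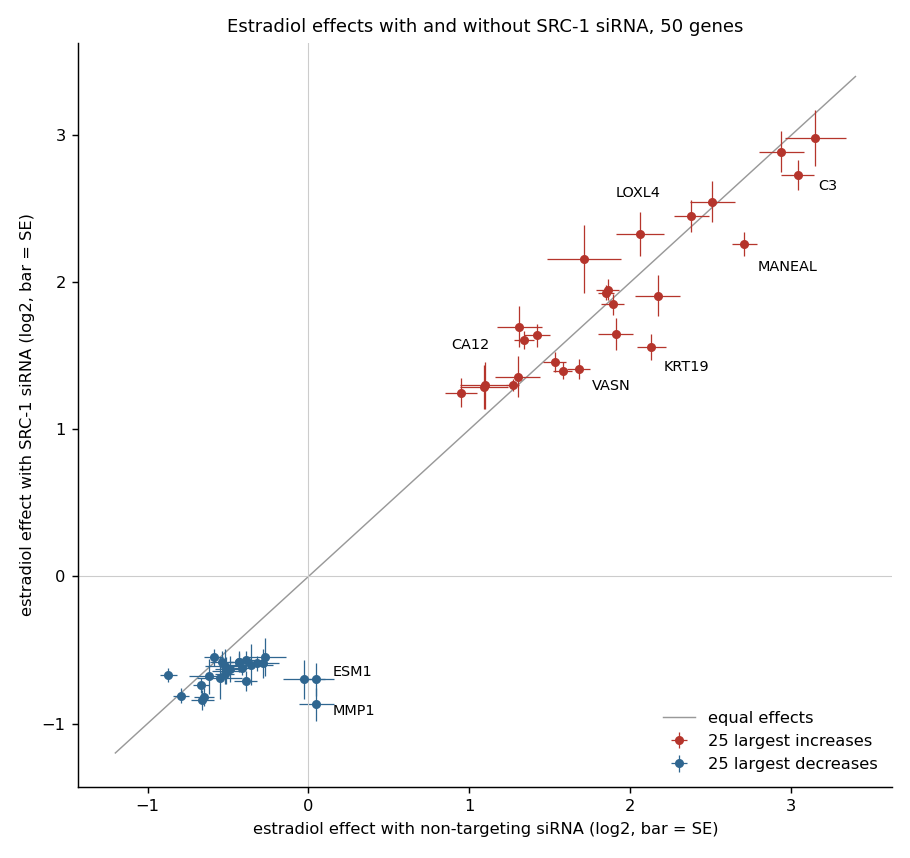
Estradiol effect (log2 estradiol minus vehicle, with its standard error) with SRC-1 siRNA on the vertical axis against the effect with non-targeting siRNA on the horizontal axis, for the 25 largest increases and the 25 largest decreases with SRC-1 siRNA; the line marks equal effects. Most points lie near the line, and MMP1 and ESM1 (0.05 each) and MOS (-0.03) lie near 0 on the horizontal axis; the genes were chosen by their values on the vertical axis.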

How the data were processed

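Expression was measured on 12 arrays, 3 in each of 4 groups taken from the sample titles. The authors deposited log2 values per probe set; per the series' design text the scans were processed with the affy package and tested with limma at p under 0.01 and q under 0.05. The background correction and normalization are not given in the sources used here. Probe sets were named by the platform annotation: 19460 had 1 gene symbol, 1754 several and 7880 none. The 4203 probe sets numbered below 7896740 were taken as controls, from their identifiers alone, and left out of the tests.

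Group means were fitted over the 12 arrays with limma 3.58.1 in R 4.3.3 (residual degrees of freedom 8, prior 3.15), with Benjamini-Hochberg adjustment over 29094 probe sets; errors are standard errors of differences, with a median of 0.071, and the number of arrays limits the precision. Array medians lay between 6.855 and 6.921, and correlations within groups between 0.9952 and 0.9968. The script was checked on simulated data. Replicate numbers were not treated as pairing in the main fit. Named genes are NCOA1, ESR1, the 25 largest called increases and decreases without overlap, up to 4 called members of each list with the smallest p, cell type markers, and the 8 smallest p of the difference in each direction among genes with a called average effect; further members were named after their values were seen. The members and the 66 lists (65 measured, 3370 genes) were chosen with earlier results of these data known. Levels were not compared between probe sets. Alternatives covered scaling, filters, variance, a covariate, the replicate block and left-out arrays.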

Additional observations from a re-analysis of the deposited data

Results flagged for a closer look

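Data outside the tests also moved with estradiol. The mean deviation of the 4203 control probe sets was 0.135 in the estradiol arrays with SRC-1 siRNA, above the vehicle arrays at -0.091, and the corresponding means with non-targeting siRNA were 0.032 and -0.076. In a fit of all probe sets, 384 of the controls rose and 7 fell with SRC-1 siRNA, and 45 and 3 with non-targeting siRNA.

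Of the 7880 tested probe sets with no gene symbol, 465 were called for estradiol with SRC-1 siRNA (5.9%), 289 higher and 176 lower. They are unnamed here and were not described further.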

How the results depend on the processing

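Against 2001 called probe sets for estradiol with SRC-1 siRNA, fitting only the 6 compared arrays called 958, the control-probe-set covariate 106 (96 of them shared with the 2001), and a fold change of at least 1.5 called 302; leaving out 1 array gave 1042 to 2956. With non-targeting siRNA the count of 793 became 366 with the covariate, 165 with the fold minimum and 531 to 783 without 1 array. The difference of effects gave 0 called probe sets, except 2 with a trended, robust variance. Increases were 65.3% of calls, 48.3% after quantile normalization over all probe sets and 74.3% after median centring. With the covariate 2 of the named genes reversed, COL2A1 to 0.07 and BCL2L11 to -0.01, 154 were no longer called and 75 kept their call or lack of one; the cause was not tested. The replicate block called 2308 probe sets, 1817 shared with the 2001, 807 with non-targeting siRNA and 0 for the difference (limma, smallest adjusted p 0.0911), and 3 named genes lost their call. With SRC-1 siRNA, deviations from the group means correlated at 0.209, 0.193 and -0.035 between same-numbered vehicle and estradiol arrays. Differently numbered arrays correlated at -0.264 to 0.111. The labels state no pairing and the main fit used none, but whether the numbers pair the arrays was not settled. With 3 arrays a group, a difference between effects as large as -0.93 (MMP1) did not pass after adjustment, so a lack of calls there does not show equal effects.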
